A study of Mus musculus with 2 samples.

Results

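The interferon regulatory factors Irf1, Irf2, Irf3, Irf4, Irf5, Irf7, Irf8 and Irf9 were measured in 2 kinds of resting mouse T cell, naive CD4 and naive CD8. These 8 genes were taken by their symbols from the 23167 symbols of the expression files, all 8 were found, and all 8 passed the filter on low values given below. The series is on 5-hydroxymethylcytosine in T cell development. Both groups came from Foxp3-GFP mice on a C57/BL6 background, so that both carry the green fluorescent reporter of the regulatory T cell factor Foxp3. Cells were sorted from spleen and lymph nodes as high for CD62L, low for CD44, and negative for CD25 and for the Foxp3 reporter, and the labels name no treatment. Age, sex and the number of mice pooled are not given in the labels. Ribosomal-RNA-depleted total RNA was sequenced as 1 library for each kind of cell, so every comparison is between 2 libraries, without replicates and without p-values.

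Interferon regulatory factors are transcription factors that share an N-terminal DNA-binding domain with a conserved set of tryptophans and recognise GAAA repeats in interferon-responsive promoters. Irf3 and Irf7 are phosphorylated after pathogen RNA or DNA is sensed and drive type I interferon genes, and Irf9 is the DNA-binding part of ISGF3, the complex by which type I interferon turns on antiviral genes. Irf1 and Irf2 act on overlapping sites as activator and repressor, Irf4 is induced by antigen receptor signals in T cells, and Irf5 and Irf8 are best known from B cells, macrophages and dendritic cells.

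Of the 8 genes, 3 hold in a RefSeq promoter window the letters of an interferon-responsive element. Whether these stretches link the 3 genes to signals from the interferon receptors was not tested. The search used TTCNNNGAA, the gamma-activated sequence, and the core of the interferon-stimulated response element, which is GAAA, any 2 bases, then GAAA again, on both strands of the window from 250 bases before to 50 bases after each start site. Capitals mark the matches, the build is GRCm38.p6, and only bases upstream of the start are printed, 5′ to 3′ on the plus strand, which is the strand of these 3 genes.
Irf1, chr11:53769904-53769952: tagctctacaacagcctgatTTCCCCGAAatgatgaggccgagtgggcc
Irf2, chr8:46739495-46739549: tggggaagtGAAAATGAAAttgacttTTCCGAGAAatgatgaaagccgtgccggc
Irf8, chr8:120736167-120736233: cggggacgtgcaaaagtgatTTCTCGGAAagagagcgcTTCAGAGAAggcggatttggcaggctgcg

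The Irf1 match begins 90 bases before the start site. Irf2 holds the response element core at 241 bases before the start and TTCNNNGAA at 224, and the matches do not overlap. Irf8 holds TTCNNNGAA at 171 and again at 153 bases before the start. TTCNNNGAA occurs in 8.3% of the 32851 mouse windows in the table and the response element core in 3.44%. All 8 genes matched the table, with 11 windows because Irf1, Irf8 and Irf9 each have an alternative start, and the other 8 windows hold neither string. A match is a description of letters and was not tested as a site in these cells.

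Levels are given as RPKM, reads normalised to gene length and to the library total, and are comparable between genes per length. Whole reads were recovered from the RPKM, with library totals of 24741945 reads for CD4 and 23853921 for CD8, and a median of 960 and 898 reads among the 10228 genes at 1 RPKM or more in at least 1 library, called the compared genes. Intervals are exact 95% intervals from these reads and cover counting error only. They also rest on the gene length taken, which was the smallest the values allow for 81.6% of symbols above 0 in both libraries. For the rest, the smallest length would give fewer reads and wider intervals, printed below beside several genes. The T cell genes Cd3d, Cd3e, Cd3g, Cd247, Lck and Cd5 were all expressed in both libraries. Cd4 was at 305 RPKM in the CD4 library and 8.89 in the CD8 library, and Cd8a at 2.50 and 518 RPKM, in the direction of the sort.

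The family could be divided into 4 abundant and 4 scarce genes, with the same genes on each side in both libraries. Irf1, Irf9, Irf7 and Irf3 were at 46.1 to 152 RPKM, and Irf2, Irf4, Irf8 and Irf5 were at 0.194 to 10.2 RPKM. Irf1 alone made up 36.7% of the summed RPKM of the 8 genes in CD4 and 40.7% in CD8, and its level exceeded that of 96.5% and 96.7% of the compared genes. No member passed the size rule, a difference of at least 2-fold on the scale log2((CD4 RPKM + 1)/(CD8 RPKM + 1)), toward either library. Over all compared genes the size rule was passed toward CD4 by 2.41% and toward CD8 by 3.07%, so a count of 0 among 8 is near that background. The count toward CD4 was 1, Irf5, with no pseudocount, with a pseudocount of 0.1 RPKM, or with both libraries rescaled to equal sums of 1000000. That rescaling raises both libraries, from sums of 457587 RPKM in CD4 and 530342 in CD8, so the pseudocount and the filter also become smaller beside the levels. With CD8 alone brought to the CD4 sum, and the pseudocount and filter kept, Irf5 was at 0.81 and the count was 0.

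**Figure D1:**
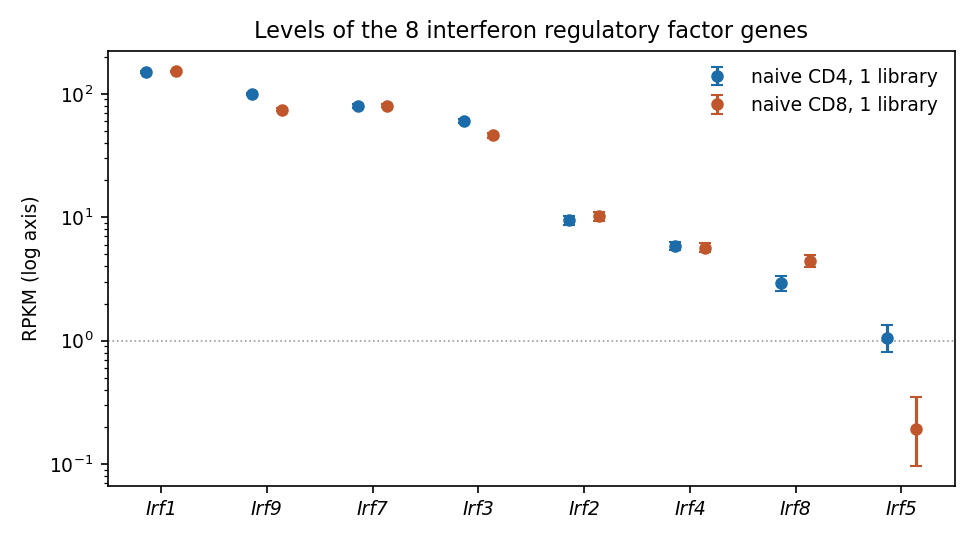
RPKM (vertical log axis) of the 8 genes in the naive CD4 (blue) and naive CD8 (orange) library, 1 point per library, with exact 95% Poisson intervals for counting error. The dotted line is at 1 RPKM; Irf5 in CD8, at 0.194 RPKM, is the 1 point below it.

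On that log2 scale, with CD8 subtracted from CD4, the 8 genes had a median of 0.01 and all compared genes one of 0.08. Of the 8 genes, 4 lay above 0 and 4 below it, but centring on the median gene made this 3 and 5, rescaling to the housekeeping list 5 and 3, and rescaling to equal sums 7 and 1. With equal sums Irf1, Irf2, Irf4 and Irf7, which are near 0 in the RPKM as deposited, lay toward CD4 at 0.10 to 0.23, while Irf8 stayed toward CD8. Over all compared genes 59.5% lay above 0 and 40.5% below in the RPKM as deposited. With equal sums the median of all compared genes was 0.29, and the share above 0 was not computed. The 95% counting interval of the CD4 to CD8 ratio lay wholly above 1 for 3 members, Irf3, Irf5 and Irf9, and wholly below 1 for 1, Irf8. Intervals at this depth are narrow, and those of 45% of the compared genes lay above 1 and of 27.1% below it, so an interval clear of 1 says only that these libraries differ by more than counting error. In these bulk libraries fewer cells with a transcript and less RNA per cell cannot be told apart.

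**Figure D2:**
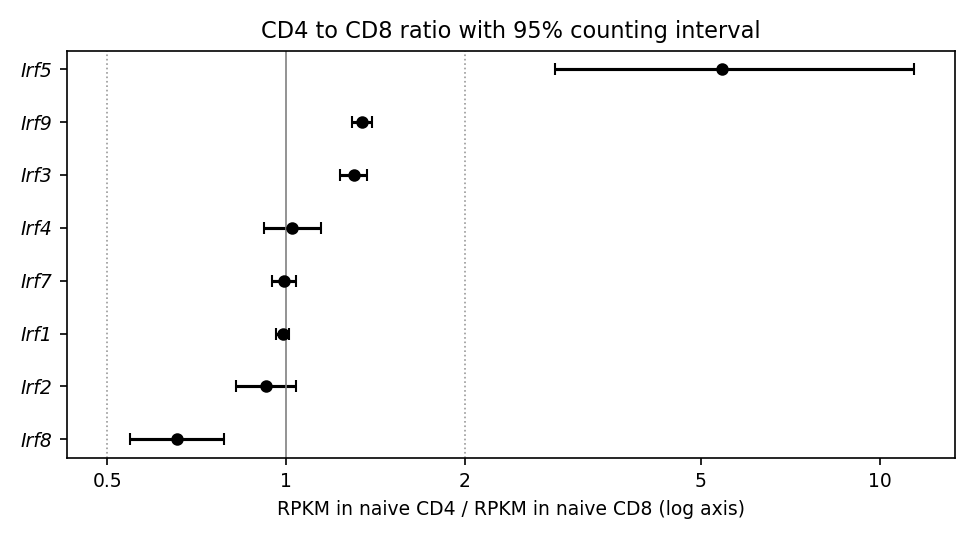
RPKM in CD4 divided by RPKM in CD8 (horizontal log axis) for each of the 8 genes, with exact 95% intervals for counting error. Irf5, Irf9 and Irf3 lie above 1 and Irf8 below it, the intervals of the other 4 hold 1, and the dotted lines mark a ratio of 0.5 and of 2.

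Irf9, the DNA-binding subunit of ISGF3, was at 99.5 RPKM in CD4 (6587 reads, interval 97.1 to 102) and 74.0 RPKM in CD8 (4727 reads, 71.9 to 76.2). The CD4 library was the higher and the intervals did not overlap. The ratio was 1.34 (1.29 to 1.39), and 27.6% of the compared genes had a larger absolute log2 difference than the 0.42 of Irf9. Stat2, a partner of Irf9 in that complex, differed in the same direction on the RPKM scale. It was at 11.7 RPKM in the CD4 library and 8.86 in the other, a ratio of 1.31 (1.21 to 1.43). With the smallest gene length its values allow, the interval of Stat2 would be 1.16 to 1.49. In both libraries Stat2 was scarcer than Irf9 per length. The genes nearest to Irf9 in level over both libraries, by Euclidean distance on log2(RPKM + 1), were Rps6ka1, at 99.97 and 73.7 RPKM, and Fyb, at 102 and 74.7 RPKM. With only 2 libraries such nearness describes a pair of levels.

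Irf3, the constitutively made factor that answers sensed nucleic acids, was at 59.9 RPKM in CD4 (3234 reads, interval 57.9 to 62.0) and 46.1 RPKM in CD8 (2398 reads, 44.3 to 48.0). Its ratio of 1.30 (1.23 to 1.37) was close to that of Irf9, and again the intervals of the libraries did not overlap. Irf7, the interferon-inducible relative of Irf3, was at 79.8 RPKM in CD4 (3650 reads, 77.2 to 82.4) and 80.3 RPKM in CD8 (3542 reads, 77.7 to 83.0). The ratio of Irf7 was 0.99 with an interval of 0.948 to 1.04, so a difference was not detectable at this depth, and 97.8% of the compared genes had a larger absolute log2 difference. Irf3 was therefore at 0.751 times the level of Irf7 in CD4 and 0.574 times in CD8. Dock11 (79.4 and 79.2 RPKM) and Idh3g (78.5 and 80.4 RPKM) were nearest to Irf7 in level.

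Irf1, the activator induced by interferon gamma and needed for normal CD8 T cell development, was the highest member in both libraries. It was at 149.96 RPKM in CD4 (12422 reads, interval 147 to 153) and 152 RPKM in CD8 (12119 reads, 149 to 154). The intervals overlapped and the ratio was 0.99 (0.964 to 1.01). Irf2, which competes with Irf1 for its sites, was at 9.46 RPKM in CD4 (579 reads, 8.70 to 10.3) and 10.2 RPKM in CD8 (602 reads, 9.40 to 11.0). Its ratio was 0.93 (0.826 to 1.04), again not distinguishable from 1 by counting error. Irf1 exceeded Irf2 by 15.9 times per length in CD4 and 14.9 times in CD8. The genes nearest to Irf1 in level were 4632428N05Rik (152 and 156 RPKM) and Fth1, a ferritin chain (146 and 149 RPKM).

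Irf4, the factor that follows antigen receptor signal strength, was low and alike in both libraries. It was at 5.81 RPKM in CD4 (interval 5.38 to 6.27) and 5.67 RPKM in CD8 (5.24 to 6.13), from 672 and 632 reads. The ratio was 1.03 (0.918 to 1.14). The reads of Irf4 rest on a gene length at 2 times the smallest that the values allow, and with the smallest length the reads would be 336 and 316 and the interval 0.877 to 1.20, which also holds 1.

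Irf8, which directs dendritic cell and monocyte development and is also expressed in B cells, was the 1 member whose interval lay toward CD8. It was at 2.91 RPKM in CD4 (203 reads, interval 2.52 to 3.34) and 4.43 RPKM in CD8 (298 reads, 3.94 to 4.97). The CD8 library was the higher by 1.52 times (1.27 to 1.83), without overlap of the intervals, and the log2 difference was -0.47. It stayed below 0 under each alternative that kept it among the compared genes, between -0.25 and -0.61. Irf4 was at 2.0 times the level of Irf8 in CD4 and 1.28 times in CD8.

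Irf5, which acts downstream of Toll-like receptors and Myd88 in myeloid and B cells, had the largest ratio and the fewest reads of the 8 genes. It was at 1.05 RPKM in CD4 (62 reads, interval 0.807 to 1.35) and 0.194 RPKM in CD8 (11 reads, 0.0966 to 0.346). The CD4 library was the higher by 5.43 times (2.84 to 11.4), with no overlap. On the scale with the pseudocount the log2 difference was 0.78, under the size rule, because the pseudocount is as large as the level itself. Without a pseudocount it was 2.44. Irf5 passed the filter on low values only through the CD4 library. The level in CD4 exceeded that of 3.65% of the compared genes and the level in CD8 that of 0.479%.

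Since Irf5 and Irf8 are strongly expressed in B cells and myeloid cells, marker genes of these cells are given beside them. Of 6 B cell markers 1, Cd79b, was at 1 RPKM or more, at 2.14 RPKM in CD4 against 28.8 in CD8, so the summed level was 3.67 and 30.1 RPKM while the median marker was at 0.350 and 0.332 RPKM. The kinase gene Blk was at 0.213 RPKM in the CD4 library (13 reads) and 0.0511 in the CD8 library (3 reads), so it moved in the direction of Irf5. Ms4a1 had 20 and 17 reads and Cd79a 10 and 10. Of 7 monocyte and macrophage markers 3 were at 1 RPKM or more in CD4 and 2 in CD8, with a summed level of 7.17 and 5.36 RPKM, and Cd14 was listed at 0 in both. These markers went both ways. The integrin gene Itgam was at 1.62 RPKM in the CD4 library and 0.559 in the CD8 library, a ratio of 2.89 (2.16 to 3.92). With the smallest length its values allow, the interval of Itgam would be 1.91 to 4.49. Cd68 was at 3.63 and 2.26 RPKM (1.61, 1.13 to 2.30, or 0.659 to 4.16 with the smallest length its values allow). Emr1, the macrophage marker F4/80, went toward CD8 with 4 and 17 reads (ratio 0.23, 0.0555 to 0.695). Lyz2 was at 1.65 and 2.15 RPKM, with an interval that held 1 (0.502 to 1.17).

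Conventional dendritic cell markers were low, and 1 of the 6, Itgax, reached 1 RPKM, in CD8 only. The 6 genes of that list summed to 0.460 RPKM in CD4 and 1.34 in CD8. Of this sum the integrin gene Itgax made 0.263 and 1.07 RPKM, from 26 and 102 reads. Its CD4 to CD8 ratio of 0.25 (0.153 to 0.381) lay in the direction of Irf8. Zbtb46 went the same way with 2 and 10 reads (0.19, 0.0205 to 0.905). Flt3 (9 and 5 reads) and Xcr1 (8 and 6 reads) had intervals that held 1. Clec9a had 0 and 2 reads, and Batf3 was listed at 0 in both. Of the 6 plasmacytoid markers Siglech was listed at 0 in both. The sum of 68.9 and 94.8 RPKM came mostly from Bst2 and from Pacsin1. Bst2 is also an interferon-stimulated gene and is described with those below. The scarcer markers went opposite ways. Tcf4 lay toward CD4 with 99 and 32 reads (ratio 2.98, 1.98 to 4.59). Runx2 lay toward CD8 with 7 and 46 reads (0.15, 0.0559 to 0.327), and the interval of Spib held 1. The NK markers summed to 10.6 RPKM in CD4 and 121 in CD8, mostly Klrd1, and 3 of 6 were at least 2-fold higher in CD8. Of the plasma cell markers, where Irf4 is high, Xbp1 was at 27.2 and 19.9 RPKM, Sdc1 at 0.0132 and 0.124, and Tnfrsf17 was listed at 0 in both. Igj, at 0.674 and 1.16 RPKM, lay toward CD8 (ratio 0.58, 0.371 to 0.900). Regulatory T cells were gated out through CD25 and the Foxp3 reporter, and of their 4 markers 3 were compared, 1 past the size rule toward CD4 and 2 toward CD8, with a summed level of 6.71 and 14.4 RPKM. Foxp3 was at 1.40 RPKM in CD4 (136 reads) and 0.161 in CD8 (15 reads), a ratio of 8.74 (5.12 to 16.0), in the direction of Irf5. Il2ra, the gene of CD25, had 46 and 23 reads (ratio 1.93, 1.14 to 3.33). Ctla4, at 3.82 and 8.64 RPKM, and Ikzf2, at 1.07 and 5.38 RPKM, were at least 2-fold higher in CD8. The part of other cell types in the Irf5, Irf8 and Irf4 values was not tested.

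The order of the members by level was Irf1, Irf9, Irf7, Irf3, Irf2, Irf4, Irf8, Irf5 in CD4, and the same in CD8 except that Irf7 stood above Irf9. In CD4 Irf9 exceeded Irf7 by 1.25 times (interval 1.20 to 1.30), and in CD8 Irf7 exceeded Irf9 by 1.08 times (1.04 to 1.13). The closest neighbours in CD4 were this pair, and the interval of each neighbour ratio in both libraries lay clear of 1 by counting error. The next closest in CD8 were Irf4 and Irf8, with a ratio of 1.28 (1.11 to 1.47). The widest gap among the upper 7 genes lay between Irf3 and Irf2, at 6.34 times in CD4 and 4.52 times in CD8. Irf8 exceeded Irf5, the lowest gene, by 2.77 times in CD4 (2.07 to 3.74) and 22.9 times in CD8 (12.6 to 46.4). In CD8 this was the widest gap of all. Levels between genes also carry differences in how well their sequences can be mapped, which no replicate library measures here.

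**Figure D3:**
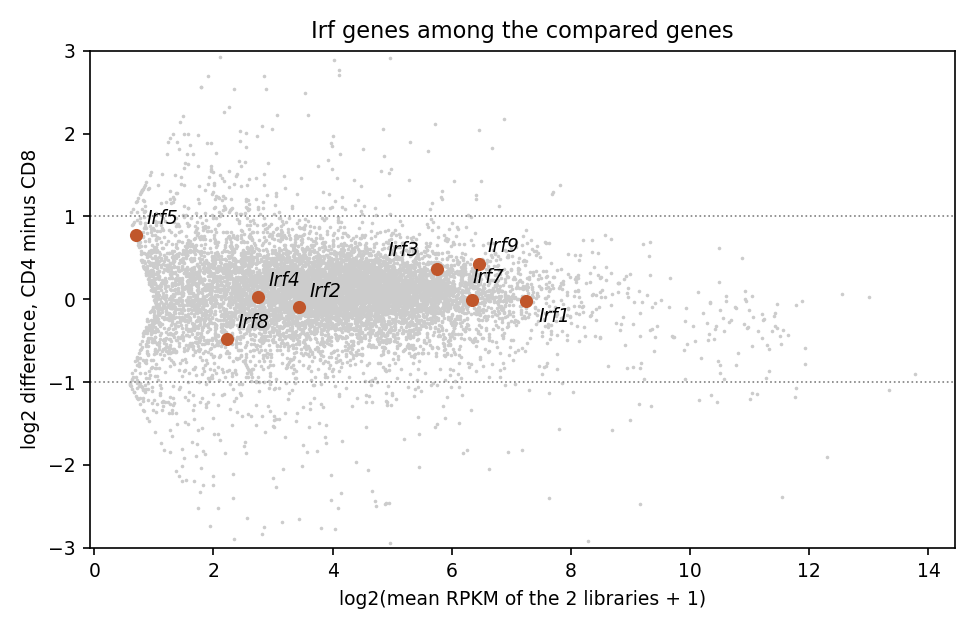
Log2 difference, CD4 minus CD8 (vertical axis), against log2(mean RPKM + 1) (horizontal axis) for the compared genes (grey) and the 8 interferon regulatory factors (orange, named), with 46 genes beyond 3 on the vertical axis not drawn. All 8 lie between the dotted lines of the size rule, Irf1 and Irf7 near 0, and Irf5 at the low edge of the compared genes.

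Reads could be shared with neighbouring genes, because the strand setting of the counting is not given in the sources used here. In the GENCODE M21 annotation 14.1% of the exon bases of Irf5 lie opposite exons of Tnpo3, a nuclear import receptor gene at 38.3 RPKM in CD4 against 35.6 in CD8. The ratio of Tnpo3 was 1.08, against 5.43 for Irf5. Irf3 shares 2.56% of its exon bases with Bcl2l12 on the opposite strand, at 9.50 and 9.73 RPKM. Irf9 shares 2.28% with Rnf31 on the same strand, at 35.3 and 29.7 RPKM, and Irf7 shares 1.19% with Phrf1 on the opposite strand, at 31.6 and 26.1 RPKM. Rnf31 and Phrf1 had ratios of 1.19 and 1.21. Irf1 shares 3.4% with Gm17334 on the opposite strand, a symbol not used here. These overlaps come from another build than the mm9 of the files, and their part in the values was not tested.

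The lists of pathway genes that follow were chosen for what the genes do upstream, beside or downstream of the factors. They were chosen with earlier results of these data known, so their counts and medians are description and not independent support. Each list is described by counts and its median next to the values of all compared genes given above. List counts with equal sums are to be read beside the median of 0.29 of all compared genes under that scaling. Upstream, the 9 interferon receptor and JAK-STAT genes were all compared, with a median log2 difference of 0.14, 6 above 0 and 3 below (5 and 4 after centring on the median gene), and none past the size rule. The receptor chains went opposite ways within each receptor. Of the type I receptor, Ifnar1 measured 39.9 RPKM in CD4 and 34.3 in CD8 (ratio 1.16, 1.12 to 1.21), and Ifnar2 at 22.9 and 31.5 RPKM (ratio 0.73, 0.684 to 0.774). Of the interferon gamma receptor, Ifngr2 was at 39.6 and 24.2 RPKM (ratio 1.64, 1.56 to 1.73, or 1.53 to 1.76 with the smallest length). The ligand-binding chain Ifngr1 was at 68.3 and 95.8 RPKM (ratio 0.71, 0.682 to 0.745). Jak1, the kinase common to both receptors, was at 198 and 260 RPKM. Jak2, at 45.8 and 45.3 RPKM, had a ratio whose interval held 1 (0.975 to 1.05), and Tyk2 was at 26.1 and 23.5 RPKM.

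The listed genes of the sensing route to Irf3, Irf5 and Irf7 lay mostly toward CD4. Of 16 genes fixed, 15 were listed and 13 were compared, 12 of them above 0 and 1 below (11 and 2 after centring), with a median log2 difference of 0.32 and none past the size rule. The median was 0.24 after centring on the median gene and 0.55 with equal sums. Counting intervals lay above 1 for 11 of the 13 and below 1 for 1. Of the compared genes as a whole 59.5% lay above 0, and intervals lay above 1 for 45% and below 1 for 27.1%. Ikbke, the kinase IKK epsilon that phosphorylates Irf3 and Irf7, led the list with 181 RPKM in CD4 and 148 in CD8 (ratio 1.22, 1.19 to 1.25), and Tmem173, the adaptor STING, was next at 94.8 and 72.6 RPKM (1.31, 1.25 to 1.36). Tbk1, the sister kinase, was at 39.9 and 33.8 RPKM. The RNA sensors Ddx58 (RIG-I) and Ifih1 (MDA5) were at 51.8 against 30.9 RPKM (1.67, 1.61 to 1.75) and 11.9 against 8.04 RPKM (1.48, 1.37 to 1.61), and their adaptor Mavs at 7.62 against 4.70 RPKM (1.62, 1.42 to 1.85). Myd88, which links Toll-like receptors to Irf5 and Irf7, was at 45.8 and 35.1 RPKM.

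Tlr7, the endosomal RNA receptor upstream of Myd88, was the 1 compared gene of this list below 0, at 3.71 RPKM in CD4 against 5.20 in CD8 (ratio 0.71, 0.620 to 0.824). Tlr3 (0 reads in CD4, 2 in CD8) and Tlr9 (1 and 4 reads) had too few for a comparison. Tlr7 was thus above both Irf5 and Irf8 in level in each library, and it differed in the direction of Irf8.

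Among proteins that act with the factors, 14 of 16 genes were listed and 11 compared, 5 above 0 and 6 below (9 and 2 with the libraries rescaled to equal sums), with a median of -0.05 and none past the size rule. That median was 0.16 with equal sums. The corepressors of Irf2, Irf2bp1 (10.4 and 11.3 RPKM) and Irf2bp2 (46.4 and 48.2 RPKM), had ratios whose intervals held 1, as did that of Irf2. Batf, the partner of Irf4 at composite AP-1 sites, was likewise alike at 36.3 and 35.2 RPKM (ratio 1.03, 0.934 to 1.14). Junb, another part of that complex, measured 108 RPKM in CD4 and 166 in CD8, 1.53 times higher in CD8 (1.48 to 1.59). Ikzf1, which binds composite sites with Irf4 and Irf8 in lymphocytes, was the highest at 240.3 and 220.0 RPKM, and its relative Ikzf3 was at 24.7 and 39.2 RPKM.

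The related proteins Def6 and Swap70, of which Def6 restrains Irf4 in T cells, were both higher in CD4 by their counting intervals. Def6 was at 124 and 96.2 RPKM (ratio 1.29, 1.24 to 1.33). Swap70 was at 3.69 and 1.54 RPKM (2.39, 1.97 to 2.91), with a log2 difference of 0.88, under the size rule. It passed the rule at 1.21 with a pseudocount of 0.1 RPKM, at 1.26 with none, at 1.21 with equal sums and at 1.01 with CD8 alone brought to the CD4 sum. Spib was below 1 RPKM in both libraries, and Batf2 and Batf3 were listed at 0.

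**Figure D4:**
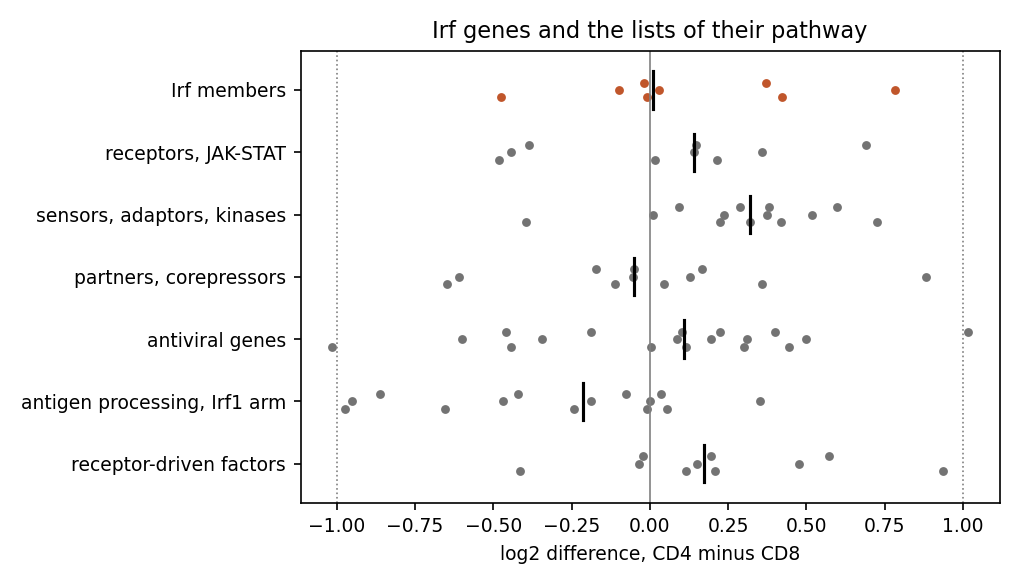
Log2 difference, CD4 minus CD8 (horizontal axis), of each compared gene of the Irf members (orange) and of the 6 pathway lists (grey), with a black bar at the median of each and dotted lines at the size rule. The sensing list has the highest median, 0.32, and the antigen processing list the lowest, -0.21.

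Downstream, the antiviral genes of the ISGF3 and Irf7 arm went both ways. All 18 were compared, 12 above 0 and 6 below (11 and 7 after centring), with a median of 0.11, and 1 gene passed the size rule in each direction. Ifit2, an interferon-induced inhibitor of viral translation, measured 34.6 RPKM in CD4 and 16.6 in CD8 (ratio 2.08, 1.96 to 2.21). Mx1, a dynamin-like antiviral GTPase, was at 5.14 and 11.4 RPKM, 2.22 times higher in CD8 (1.96 to 2.51). Its 377 and 806 reads rest on a gene length at 13 times the smallest that the values allow, and with the smallest length they would be 29 and 62 reads, with a CD4 to CD8 ratio of 0.45 in an interval of 0.280 to 0.712. Ifit2 and Mx1 both fell under the size rule with a pseudocount of 5 RPKM, Ifit2 also after centring on the median gene and Mx1 after rescaling to equal sums in either way. The neighbouring family members Ifit1 (28.6 and 23.1 RPKM), Ifit3 (21.1 and 19.6 RPKM) and Mx2 (5.35 and 3.67 RPKM) were closer between the libraries, and paralogs of these families can share reads. Bst2, the virion tether, was at 54.4 and 83.0 RPKM, and Ifi35 at 68.9 and 58.7 RPKM. Isg15, the ubiquitin-like protein often read as a sign of type I interferon, was at 20.9 and 19.2 RPKM (ratio 1.09, 0.938 to 1.26), and Rtp4 at 32.0 and 31.9 RPKM. Usp18, which limits type I interferon signalling, was at 26.9 and 20.1 RPKM (1.34, 1.22 to 1.46).

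Genes of the Irf1 arm, the antigen processing genes and related regulators, had the lowest median of the lists, -0.21, which was -0.0043 with the libraries rescaled to equal sums. Of 14 compared genes 4 were above 0 and 10 below (7 and 7 with equal sums), and none passed the size rule. B2m, at 1380 and 2173 RPKM, and Psmb8, at 299.7 and 415 RPKM, were the highest. The genes of this list with the lowest log2 differences were Il12rb1, the IL-12 receptor chain, at 1.88 and 4.65 RPKM (-0.97, 2.47 times higher in CD8, 2.01 to 3.05), Socs1, the feedback inhibitor of Jak1 and Jak2, at 6.14 and 12.8 RPKM (-0.95, 2.09 times, 1.84 to 2.37), and the guanylate-binding protein gene Gbp3, at 6.40 and 12.4 RPKM (-0.86). With the smallest length its values allow, the CD4 to CD8 ratio of Socs1 would have an interval of 0.400 to 0.573. Il12rb1 and Socs1 passed the size rule toward CD8 with a pseudocount of 0.1 RPKM (-1.26 and -1.05), with none (-1.31 and -1.06) and after centring on the median gene (-1.05 and -1.03). Nlrc5, the transactivator of class I genes, was at 62.0 RPKM in both libraries (ratio 1.0, 0.974 to 1.03). Ciita, its class II counterpart, was below 1 RPKM in both, with 22 and 15 reads. Tap1, a peptide transporter subunit with an Irf1-responsive promoter, was higher in CD4 at 155 and 121 RPKM (1.28, 1.24 to 1.31).

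Of the receptor-driven factors that accompany Irf4, 10 of 11 were compared, 7 above 0 and 3 below (9 and 1 with equal sums), with a median of 0.17 and none past the size rule. Prdm1, the gene of Blimp-1, which Irf4 helps to induce, had the largest difference of this list. It was at 1.24 RPKM in CD4 (158 reads) and 0.171 in CD8 (21 reads), a ratio of 7.25 (4.59 to 12.0). Prdm1 passed the filter on low values only through the CD4 library. Its log2 difference was 0.94, and it passed the size rule with a pseudocount of 0.1 RPKM (2.31), with none (2.86) and with equal sums (1.49), but not with CD8 alone brought to the CD4 sum (0.97). Rel, the NF-kB subunit needed for Irf4 induction, was alike at 4.48 and 4.61 RPKM (0.97, 0.882 to 1.07), as was Egr2 at 6.72 and 6.83 RPKM. With the smallest length its values allow, the interval of Rel would be 0.821 to 1.15, which also holds 1. Nr4a1, a reporter of recent receptor signals, was at 11.4 and 7.91 RPKM (1.44, 1.28 to 1.62), and Nfatc2 at 5.09 and 3.10 RPKM (1.64, 1.48 to 1.82). Myc, a growth regulator induced by the same signals, was the 1 gene of this list with an interval toward CD8, at 7.79 and 10.7 RPKM.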

How the data were processed

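Per the labels' protocols, RNA was depleted of ribosomal RNA and made into SOLiD low-input libraries. The authors deposited RPKM per gene symbol; per the submitters' processing notes, TopHat, HTSeq and the build mm9 were used (neither versions nor an annotation are stated). Each file held 26882 rows; 2597 symbols had several rows, all with the same value, and were counted once (Irf1 stands on 3 rows, Irf5 and Irf9 on 2 each).

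Reads were recovered as the whole numbers that give the RPKM at a whole gene length, scaled by the transcript lengths of GENCODE M21. This succeeded for 12734 of 12735 symbols above 0 in both libraries, within the printed precision of the values. Recovered reads summed to 1.05 and 1.07 times the library totals; the cause was not tested. Ratio intervals are Clopper-Pearson and level intervals Poisson, both covering counting error only.

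Groups came from the labelled cell type. The difference used a pseudocount of 1 RPKM, which understates low genes, and genes at 1 RPKM or more in at least 1 library. Members and lists were chosen with earlier results of these data known. The naming rule took all members, the 2 highest genes of each list, those past the size rule, and the 2 genes nearest in level to each of the 3 highest members. Some genes that fit the rule are left out here. Other list genes were named after their values were seen. Alternatives were other pseudocounts, filters and scalings; no pseudocount, and CD8 alone brought to the CD4 sum, were added after seeing the data. The planned protein comparison is not analysed here. The calculations were tested on simulated data with Python 3.11.15, numpy 2.4.6, pandas 2.3.3 and scipy 1.17.1. The simulation was given the true length of each gene, so it could not test the choice among possible lengths.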

Additional observations from a re-analysis of the deposited data

How the results depend on the processing

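With 1 library per cell type no replicate could be left out, and no spread between samples is known. No paired analysis was possible because each group holds 1 library and the result comes from no test. Recovered reads limit the precision of Irf5 most, at 62 and 11 reads. Rescaling both libraries to equal sums of 1000000 also made the pseudocount and filter smaller beside the levels, with 10957 genes compared in place of 10228. It shifted the median of all compared genes by 0.21 and raised the share of genes past the size rule that were higher in CD4 from 44.0% to 64.9%. The median of the 8 members was then 0.22, with 0.20 for Irf1, 0.10 for Irf2, 0.59 for Irf3, 0.23 for Irf4, 0.20 for Irf7 and 0.64 for Irf9, and 1 member, Irf5, at 1.27, was at least 2-fold higher in CD4. The list medians under that rescaling were 0.35 for the receptors and JAK-STAT genes, 0.55 for the sensing genes, 0.16 for the partners, 0.32 for the antiviral genes, -0.0043 for the Irf1 arm and 0.39 for the receptor-driven factors. It put 1 partner gene (Swap70) and 1 receptor-driven factor (Prdm1) past the size rule toward CD4 and 0 antiviral genes past it toward CD8. Bringing CD8 alone to the CD4 sum, with the pseudocount and filter kept, was added after seeing the data. It shifted the median of all compared genes by 0.19, with 61.7% of the genes past the size rule higher in CD4. The median of the members was then 0.21, with 0.19 for Irf1, 0.094 for Irf2, 0.58 for Irf3, 0.21 for Irf4, 0.20 for Irf7 and 0.63 for Irf9, and 0 members passed the size rule. The list medians, in the same order as above, were 0.35, 0.50, 0.16, 0.31, -0.0042 and 0.36, with 1 partner gene (Swap70) past the rule toward CD4 and 0 antiviral genes toward CD8. Centring on the median gene gave -0.10 for Irf1, 0.29 for Irf3, -0.090 for Irf7 and 0.34 for Irf9. It gave list medians of 0.062 for the receptors and JAK-STAT genes, -0.13 for the partners and -0.30 for the Irf1 arm, and it put 0 antiviral genes past the size rule toward CD4 and 2 genes of the Irf1 arm (Il12rb1 and Socs1) past it toward CD8. Irf5 was at 1.97 with a pseudocount of 0.1 RPKM and at 2.44 with none, and 1 member was then at least 2-fold higher in CD4. Both settings put the same partner gene and receptor-driven factor past the size rule toward CD4 (1 each) and the same 2 genes of the Irf1 arm past it toward CD8. A pseudocount of 5 RPKM gave 0.22 for Irf5 and -0.25 for Irf8 and left 0 antiviral genes past the size rule in either direction. Irf5 and Irf8 are under a filter at 5 RPKM and have no value there. The other 203 values for the members and lists moved by no more than the counting error of the reported value (for a list's median, the median counting error of its genes), or by no more than 1.5 times for counts.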
